A study of Mus musculus with 4 samples.

Results

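The 10 genes described here build, control and load the MHC class II molecule: H2-Aa, H2-Ab1, H2-Eb1, Cd74, Ciita, H2-DMa, H2-DMb1, H2-Oa, Ctss and Ctsl. They were chosen by symbol from the 32285 features of the matrices, all 10 were found, and they were followed across stromal cell types and genotypes. The cells came from the thymi of C57BL/6 mice, 6 months of age and untreated, with the thymi of several mice pooled for a library. There were 4 libraries of droplet-based 3′ RNA-seq. The labels call 2 of them mock, with a wild type genotype (WT 1 and WT 2), and 2 mutant, homozygous for the LacZ allele of Foxn1 (Z/Z 1 and Z/Z 2), an allele that the study treats as hypomorphic. Foxn1 encodes the transcription factor that thymic epithelial cells (TECs) depend on, and the comparison asked what differs in the stroma when it is reduced. All 4 libraries had been depleted of CD45-positive cells with beads and then sorted, a step meant to remove dendritic and B cells, so cell shares depend on digestion and sort. The labels give both sexes for these mice, and nothing in the labels tells separate pools from separate draws of 1 pool, so p-values measure the spread between 2 libraries a group.

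An MHC class II molecule is a pair of chains, α and β, that carries a peptide from the endosome to the cell surface for recognition by CD4 T cells. The invariant chain fills the groove until endosomal proteases cut it down, after which the DM molecule swaps the remaining fragment for a peptide and the DO molecule restrains DM. In the thymus, cortical TECs (cTECs) use class II to select CD4 thymocytes and medullary TECs (mTECs), above all those that express Aire, use it to present the body's own antigens. The α and β chain genes, the invariant chain gene and the DM genes are switched on together by the coactivator CIITA, which does not bind DNA itself but sits on factors bound to X and Y boxes before these genes.

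Of the members, 6 lie in the MHC region of chromosome 17 on GRCm38 (mm10): H2-Oa at chr17:34092340-34095234, H2-DMa at chr17:34119541-34139101, H2-DMb1 at chr17:34153072-34160230, H2-Ab1 at chr17:34257689-34269419 and H2-Eb1 at chr17:34305867-34316674, all on the plus strand, and H2-Aa at chr17:34282744-34287823 on the minus strand. The other 4 are elsewhere: Cd74, whose position is given with its levels, Ciita at chr16:10480059-10528418 and Ctss at chr3:95526786-95556403, both on the plus strand, and Ctsl at chr13:64359337-64370890 on the minus strand. To show the X and Y boxes, promoter windows from RefSeq (GRCm38.p6, 250 bases before to 50 after a start) were searched. The search was for an X box core, GNAAC, followed 10 to 40 bases on by the Y box core, TGATTGG, on either strand. The pair was found in 4 of the 7 members with a window (H2-Aa, H2-Eb1, H2-DMb1 and H2-Oa) and in 2 of 21 other class II pathway genes with one (H2-Ob and H2-Eb2), against 0.828% of all 32851 windows. The 3 members without a window were H2-Ab1, Cd74 and Ciita. H2-DMa, Ctss and Ctsl had a window without the pair. The stretches of 5 genes are printed on the gene's strand with the X and Y cores in capitals, because the spacing between these cores hardly varies.
H2-Aa (chr17:34287867-34287909, minus strand): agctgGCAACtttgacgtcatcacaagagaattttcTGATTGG
H2-Eb1 (chr17:34305771-34305812, plus strand): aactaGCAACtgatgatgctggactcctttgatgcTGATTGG
H2-Oa (chr17:34092298-34092340, plus strand): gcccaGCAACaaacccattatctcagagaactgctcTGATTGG
H2-Ob (chr17:34238813-34238852, plus strand): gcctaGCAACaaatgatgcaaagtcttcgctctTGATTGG
H2-Eb2 (chr17:34325538-34325579, plus strand): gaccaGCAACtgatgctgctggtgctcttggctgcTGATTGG
In each of the 5, the X core read GCAAC, and between 23 and 26 bases separated it from the Y core. A match is a description of these letters and not evidence of binding.

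The libraries held 2731, 1192, 5558 and 4500 called cells (WT 1, WT 2, Z/Z 1, Z/Z 2, the order used throughout) with 8468086 to 50705511 UMIs, and 1458, 456, 4455 and 3477 cells passed the filters. Among these, 558, 106, 1961 and 1544 were TECs, 599, 190, 1212 and 739 fibroblasts, 109, 25, 696 and 670 endothelial cells and 68, 11, 410 and 314 mural cells, named from marker genes that include no member, and 90, 38, 5 and 34 were thymocytes that the sort had left. Foxn1 in the TECs was 90.6, 124, 50.9 and 68.5 CPM (UMIs of a gene scaled to all UMIs of the same cells in that library), higher in both WT libraries, with a log2 fold change that missed the threshold (−0.69, SE 0.23, edgeR adjusted p = 0.0829). The sources used here do not say which part of Foxn1 the allele alters, so 3′ counts may not check it. Libraries of 1 genotype shared barcodes: WT 1 and WT 2 had 202 called barcodes in common and Z/Z 1 and Z/Z 2 had 249, against 0 to 6 between libraries of different genotype. In most of them the copy in 1 library had far fewer UMIs than the copy in the other, with a median of 3.46% of the WT 2 copy in WT 1 and 1.93% of the Z/Z 1 copy in Z/Z 2. Cells with a shared barcode were 55 of the 106 TECs of WT 2 and carried 83.6% of their UMIs, against 20.7%, 35.7% and 14.5% in WT 1, Z/Z 1 and Z/Z 2. The tests within each lineage were therefore also run without them. The make-up, levels and tests of the epithelial classes, the interaction tests and the correlations are not given without them.

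Class II transcripts lay almost wholly in the epithelium. TECs held 98.7%, 96.7%, 96.3% and 97.6% of the H2-Aa UMIs of all cells kept. In fibroblasts H2-Aa, the α chain of the I-A molecule, was at 27.7, 16.3, 11.4 and 18.6 CPM against 2940.1, 2939, 1136 and 1691 CPM in the TECs of the same libraries. The proteases were less confined to TECs, which held 89.7%, 78.1%, 56.3% and 87.9% of the Ctss UMIs. For Ctsl the TEC share was 71.4%, 42.9%, 65.4% and 75.5%. Fibroblasts held 1.42%, 0.246%, 3.32% and 1.41% of the Ctss UMIs and endothelial cells 0.557%, 0, 3.16% and 3.17%. Most Ctss UMIs outside TECs thus lay in cells outside the named stroma. Ctsl, which encodes cathepsin L, was at 789 to 937 CPM in fibroblasts, which overlaps the 806.5 to 1784 CPM of the TECs.

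**Figure D1:**
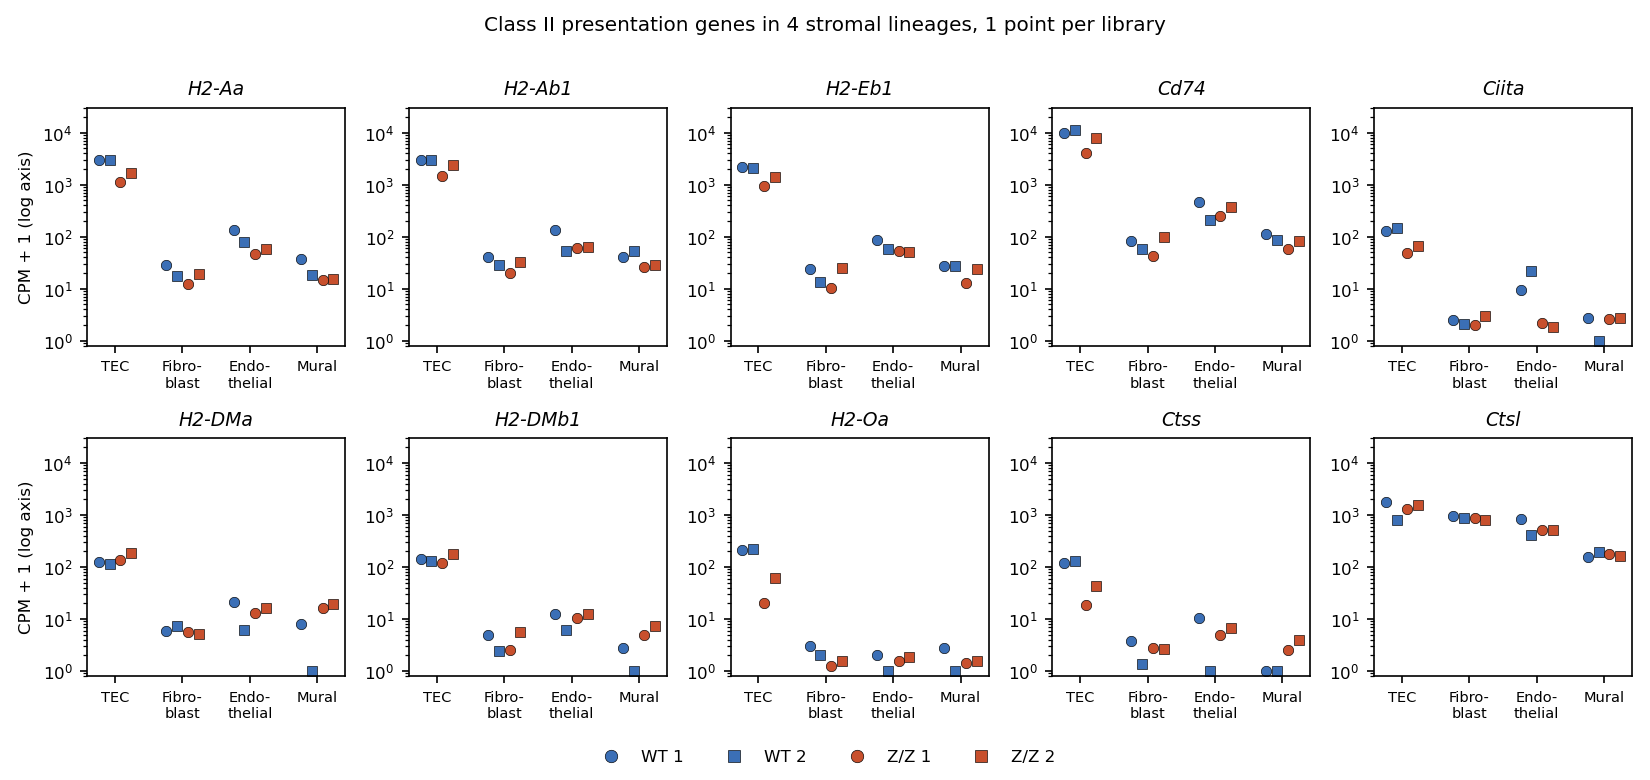
Level of each of the 10 genes (CPM + 1, log axis) in TECs, fibroblasts, endothelial and mural cells, 1 point per library, WT in blue and Z/Z in red. The chain genes, Cd74 and Ciita are highest in TECs in every library, while Ctsl spreads over TECs, fibroblasts and endothelial cells.

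Summed over all TECs, genes of the transactivator, the I-A α chain, the DO α subunit and cathepsin S fell in Z/Z. The I-A and I-E β chains, the invariant chain, the DM genes and cathepsin L did not pass the test. With edgeR, 4 of the 10 members passed at an adjusted p of 0.05, all lower in Z/Z, against 12.1% of the 18892 genes tested that were called lower and 10.4% called higher. The median log2 fold change was −0.68 over the members and −0.00 over all genes tested. The scaling of library sizes by TMM factors moved every fold change in TECs upwards by 0.15 on the log2 scale, and the CPM values given are without it. These sums mix classes of TEC, so that fewer cells of a class and less RNA per cell cannot be told apart in them.

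Of the chain genes, H2-Aa stood at 2940.1 and 2939 CPM in the WT libraries and at 1136 and 1691 CPM in the Z/Z libraries, and it fell by 0.91 on the log2 scale (SE 0.23, edgeR adjusted p = 0.0437). Both WT libraries lay together and above both Z/Z libraries. H2-Ab1, the β chain that pairs with it, was at 2976, 2924, 1447 and 2350.3 CPM. The order of the groups was the same and the fold change, −0.49 (SE 0.26, edgeR adjusted p = 0.222), did not pass. H2-Eb1, the β chain of I-E, was at 2175, 2069.8, 934 and 1423 CPM, with a log2 fold change of −0.70 (SE 0.23, edgeR adjusted p = 0.0838). C57BL/6 mice make no I-E α chain, and H2-Ea was not among the features.

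Cd74, which encodes the invariant chain (chr18:60803848-60812652, plus strand), was read at 9908, 11058, 4145 and 7834 CPM in the TECs. Its Z/Z libraries lay below both WT libraries but were far apart from each other, and the fold change of −0.66 (SE 0.34, edgeR adjusted p = 0.207) was within that spread. Ciita, the transactivator, was at 128, 145, 47.1 and 65.6 CPM and fell by 1.13 on the log2 scale (SE 0.20, edgeR adjusted p = 0.0184). The groups did not overlap, and the lower WT library was nearly at 2 times the higher Z/Z library.

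Of the DM and DO subunits, H2-Oa passed the test and the DM genes did not. H2-DMa, the DM α chain, was at 126, 115, 132 and 181 CPM, with a log2 fold change of 0.52 (SE 0.18, edgeR adjusted p = 0.0955). H2-DMb1, a DM β chain, was at 143, 129.9, 117 and 179 CPM, and its groups overlapped (0.26, SE 0.22, edgeR adjusted p = 0.429). H2-DMb1 has a related gene, H2-DMb2, with 78.5% of aligned transcript bases identical and 67.8% at the 3′ end, where these reads lie. Whether reads of the pair were split or dropped in counting was not checked. H2-Oa, the DO α chain, was at 214, 216, 19.2 and 60.4 CPM and fell by 2.29 on the log2 scale (SE 0.51, edgeR adjusted p = 0.0321), further than any other member. Its WT libraries differed by less than their distance to either Z/Z library, and the Z/Z libraries were more than 3 times apart.

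Ctss, the cathepsin that trims the invariant chain in dendritic cells and B cells, was at 118, 132, 17.5 and 41.5 CPM in the TECs and fell by 1.94 on the log2 scale (SE 0.40, edgeR adjusted p = 0.0266). Ctsl, which does so in cTECs, was at 1784, 806.5, 1324 and 1568 CPM. The WT libraries lay on both sides of the Z/Z libraries, and the fold change of 0.31 (SE 0.37, edgeR adjusted p = 0.581) did not pass. In all, both Z/Z libraries lay below both WT libraries in CPM for 7 of the 10 members, as they did for 39.2% of all genes tested. H2-DMa lay above (28.1% of genes), and H2-DMb1 and Ctsl overlapped.

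Limits on these calls came from single libraries and from the shared barcodes. H2-Aa was no longer called without WT 1, without WT 2 or without Z/Z 1 (edgeR adjusted p = 0.0712, 0.0791 and 0.121) and kept its call in 6 of 15 alternatives, and Ciita was no longer called without Z/Z 1 (0.0803). Without Z/Z 1, 2 members were called, H2-Oa and Ctss, and without WT 1 the 4 calls included Ctsl, higher in Z/Z by 0.97 on the log2 scale. With all shared barcodes left out, 51 TECs of WT 2 remained, H2-Aa was at 3049.5, 1691, 1040.0 and 1642 CPM, and 0 of 10 members were called by edgeR (0 at an unadjusted p under 0.05, 0.00565% of all genes called). With only the copy with fewer UMIs left out, 106 TECs of WT 2 remained and the same 4 members were called (22.3% of all genes called).

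**Figure D2:**
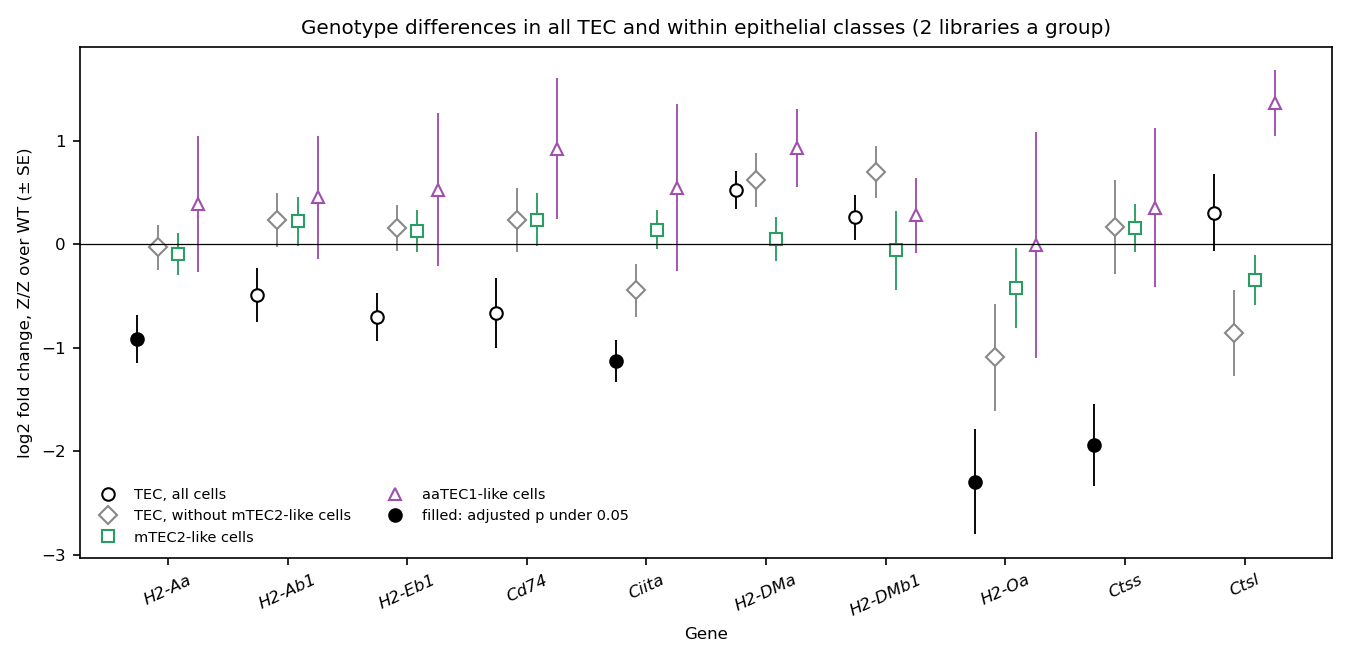
Log2 fold change of Z/Z over WT with its standard error for each of the 10 genes, in all TECs, TECs without mTEC2-like cells, mTEC2-like cells and aaTEC1-like cells, with a filled point where the adjusted p is under 0.05. The 4 filled points (H2-Aa, Ciita, H2-Oa and Ctss) are all of the sums over all TECs and lie below 0, and the mTEC2-like values lie between −0.42 and 0.24.

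The make-up of the TECs differed between the libraries, and the members were unevenly spread over it. Clustering was done without the members, and classes were named from other markers. The mTEC2-like cells, which expressed Aire and Fezf2, formed 50.7% of the TECs of WT 1 and 47.2% of those of WT 2, but 2.96% in Z/Z 1 and 5.31% in Z/Z 2. Of the 50 mTEC2-like cells of WT 2, 34 had a shared barcode. In contrast, cells like the second kind of age-associated TEC (aaTEC2-like) made up 2.15% (WT 1), 0.943% (WT 2), 28.3% (Z/Z 1) and 24.8% (Z/Z 2). The aaTEC1-like share was 2.51%, 9.43%, 12.7% and 11.5%. The mTEC2-like class also had immune genes among its leading genes (Cd52, S100a8, Ubd and Bcl2a1b).

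In the mTEC2-like cells H2-Aa was at 3993, 4038, 3179 and 4287 CPM, H2-Eb1 at 2965, 2825, 2679 and 3598 CPM and Cd74 at 13361, 15455, 13339 and 20292 CPM. Ciita was at 166, 206, 205 and 203 CPM and Ctss at 189, 209, 184 and 254 CPM. The groups overlapped for each of these genes, and Z/Z 2 was the highest library for the chains and Cd74. H2-Oa was at 321, 337, 154 and 328 CPM, with Z/Z 1 alone low.

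The class was compared between genotypes on its own sums, from 283, 50, 58 and 82 cells. No member was called by edgeR (0 of 10, 0 at an unadjusted p under 0.05 and 0 by DESeq2), with log2 fold changes of −0.42 to 0.24, standard errors of 0.18 to 0.39 and adjusted p of 0.551 to 0.957. Only 0.00793% of the 12616 genes tested were called in this class, so the fit called next to nothing at these cell numbers. Clustered more finely, the class lay in different parts by genotype: 167, 28, 16 and 31 of its cells were in an unnamed cluster led by Rptn and Skint3, 72, 14, 38 and 45 in one with Aire among its leading genes, and 43, 8, 3 and 6 in an M-like cluster. By edgeR 0 of 10 members were called in either of the first 2 clusters alone (0 and 1 at an unadjusted p under 0.05). Shared barcodes carried 93.6% of the UMIs of the class in WT 2 and 64.8% in Z/Z 1.

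Most of the WT signal in TECs came from this class. It held 82.0% and 84.6% of the H2-Aa UMIs of the WT TECs against 17.9% and 30.1% in Z/Z, and 78.5% and 87.7% of those of Ciita against 27.8% and 36.7%. For Ctss the shares were 96.8%, 97.8%, 67.1% and 72.8%, and for H2-Oa 90.7%, 96.2%, 51.3% and 64.6%. H2-DMa was less tied to it, with 59.6%, 71.5%, 5.64% and 9.64%, and Ctsl least, with 5.82%, 16.3%, 0.623% and 1.29%. The 2 members that fell furthest in the TEC sums, H2-Oa and Ctss, also had the largest WT shares in mTEC2-like cells. Within that class H2-Oa had a log2 fold change of −0.42, which did not pass. How much of each fall came from the make-up of the TECs was not tested.

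With the mTEC2-like cells left out of the TEC sums, H2-Aa was at 1337, 1176, 997 and 1341 CPM, Ciita at 69.4, 46.3, 36.3 and 47.1 CPM and Ctss at 9.45, 7.54, 6.14 and 12.8 CPM. The groups then overlapped for each of these genes. The log2 fold change was −0.03 for H2-Aa, −0.44 for Ciita, −1.09 for H2-Oa and 0.17 for Ctss, and 0 of 10 members were called by edgeR (1 at an unadjusted p under 0.05, 2.87% of all genes called). With the mTEC2-like and aaTEC1-like classes weighted equally, the 10 log2 ratios ran from −0.44 for H2-Oa to 1.13 for Ctsl. An exact permutation test of 2 libraries against 2 cannot go below 0.333 (two-sided), and none did.

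**Figure D3:**
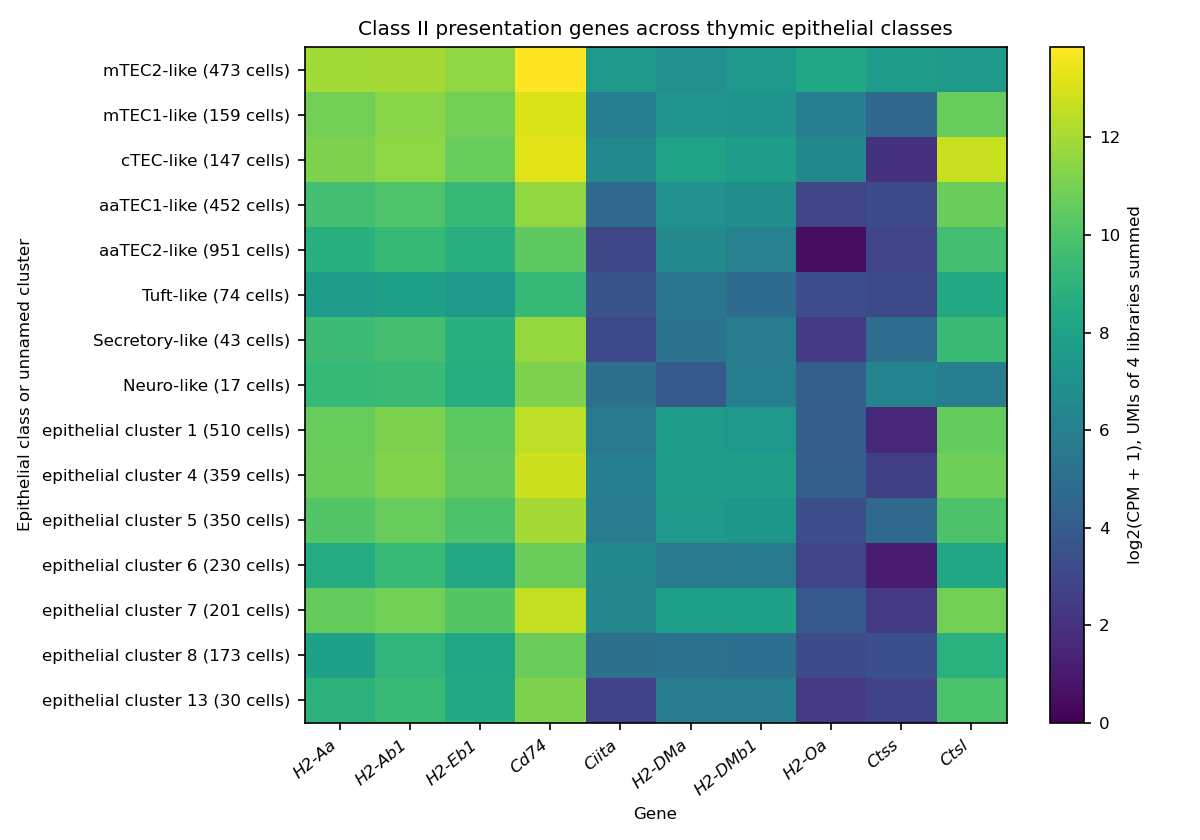
Heatmap of the level of each gene (columns, as log2 of CPM plus 1 over the 4 libraries summed) in the epithelial classes and unnamed clusters (lines, with their cells). The colours run high for H2-Aa and Cd74 in mTEC2-like, cTEC-like and mTEC1-like cells and lower in Tuft-like cells, and the highest Ctsl is in cTEC-like cells.

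The chain genes and Cd74 were higher in mTEC2-like cells than in cTEC-like and mTEC1-like cells in every library. This is given as a description because classes and members come from the same cells. H2-Aa was highest in mTEC2-like cells, and the cTEC-like cells followed with 2128, 2080.0, 1753 and 2477 CPM and the mTEC1-like cells with 1454, 2643, 2031 and 1939 CPM. The last 2 classes overlapped, and in WT 2 they rest on 5 and 4 cells. For H2-Eb1 the cTEC-like level was 1.06, 0.530, 0.691 and 0.890 times the mTEC1-like level. Which of these 2 classes was higher also changed between libraries for H2-Ab1 and Cd74. Within each library the cTEC-like level of H2-Aa was 0.533, 0.515, 0.551 and 0.578 times the mTEC2-like level.

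The age-associated classes were lower. In aaTEC1-like cells H2-Aa was at 206, 1112, 759 and 980.4 CPM and Cd74 at 575, 2913.5, 2526 and 4154 CPM, from 14, 10, 250 and 178 cells. WT 1 stood apart as the lowest library. The aaTEC2-like cells, of which WT held 13, were read in Z/Z 1 and Z/Z 2 at 407 and 492 CPM of H2-Aa, 1207 and 1667 CPM of Cd74 and 6.69 and 6.57 CPM of Ciita. In the same libraries H2-Aa was 7.81 and 8.72 times higher in mTEC2-like cells. After thinning each cell to 2000 UMIs, 40.3% and 42.2% of the aaTEC2-like cells of Z/Z 1 and Z/Z 2 had a UMI of H2-Aa and 0.722% and 0.531% had one of Ciita.

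Tuft-like cells were at the low end, with H2-Aa at 150, 94.0, 106 and 410 CPM and Ciita at 12.2, 8.54, 0 and 11.8 CPM, from 38, 6, 7 and 23 cells. Secretory-like cells were at 499, 0, 580 and 1180.4 CPM of H2-Aa, from 7, 2, 18 and 16 cells. Several clusters met no class name. A cluster led by Fst, Ucma, Kctd16 and Adamts19 (15, 4, 322 and 169 cells) was at 1438, 1579, 1590.4 and 1706 CPM of H2-Aa, and one led by Rrad and Ifi202b (10, 2, 180 and 167 cells) at 1968, 2395, 1465 and 1951 CPM. A cluster led by Kctd16, Mgat5b and Trp63 (12, 7, 154 and 57 cells) was lower, at 558, 258, 359 and 362 CPM of H2-Aa, while its Ciita was 54.4, 36.9, 97.9 and 81.1 CPM. In the Rrad cluster, where H2-Aa was higher in every library, Ciita was at 67.2, 84.0, 53.5 and 70.6 CPM. The ratio of Ciita to H2-Aa thus differed between these clusters. The Kctd16, Mgat5b and Trp63 cluster was shallower, with a median of 3453.5 UMIs a cell against 7849 in the Rrad cluster. Its Epcam was detected in 40.4% of cells against 98.6%. The counts include intronic reads, and whether depth or such reads shift this ratio was not tested.

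Cathepsins S and L marked opposite classes. Ctss was at 184 to 254 CPM in mTEC2-like cells and at 0.629, 8.81, 6.26 and 3.70 CPM in cTEC-like cells. Ctsl was at 10692, 7333, 3016 and 4278 CPM in cTEC-like cells and at 172, 214, 129 and 170.5 CPM in mTEC2-like cells, which gives a cTEC-like level 62.2, 34.3, 23.4 and 25.1 times the mTEC2-like one. Every library had this order. Both WT libraries had more Ctsl in cTEC-like cells than both Z/Z libraries, but with 5 cells in WT 2 the class was not tested between genotypes.

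In aaTEC1-like cells Ctsl was at 531, 755.5, 1641 and 1722 CPM. The Z/Z libraries were more than 2 times the WT libraries and the log2 fold change was 1.36 (SE 0.32), but it did not pass with edgeR (adjusted p = 0.396, 0 of 10 members called and 2 at an unadjusted p under 0.05, against 0.00837% of 11942 genes). DESeq2 called it (adjusted p = 0.0295). It was also called without WT 1 (0.0167) and without WT 2 (0.000472). Without WT 2, 10 cells whose UMIs came to 88.2% from shared barcodes, 6 members were called higher in Z/Z, against 2.11% of the 13720 genes tested without it. Over the class the 10 log2 fold changes ran from −0.01 to 1.36.

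**Figure D4:**
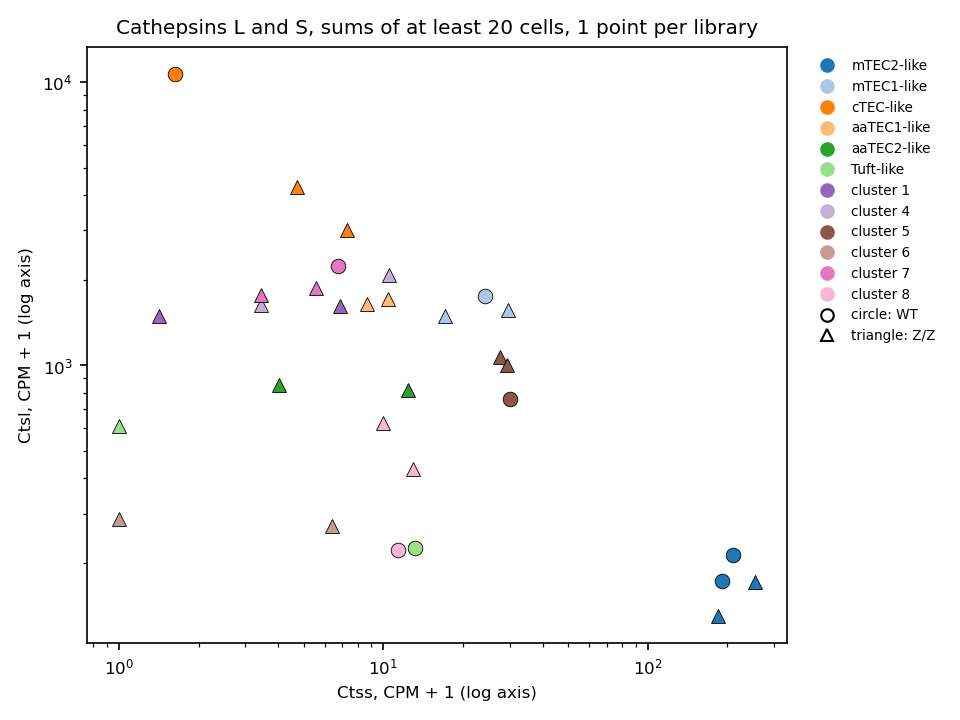
Ctss on the x axis against Ctsl on the y axis (CPM + 1, log axes), 1 point per epithelial class or cluster and library with at least 20 cells, circles for WT and triangles for Z/Z. The mTEC2-like points of all 4 libraries lie at the right with low Ctsl, and the 3 cTEC-like points (WT 2 has too few cells) lie at the upper left.

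Marker genes of blood cells were read beside Ctss and H2-Oa, since both are also expressed by myeloid and B cells. The summed level of 12 myeloid markers in the TECs was 345, 741, 72.5 and 129 CPM and that of 5 B cell markers 28.6, 33.1, 5.5 and 9.91 CPM, higher in WT as were the 2 genes. All 12 myeloid markers had UMIs in WT 1, Z/Z 1 and Z/Z 2 and 11 in WT 2, where Itgax was at 0. In mTEC2-like cells the myeloid sum was 533, 1162, 819.8 and 665 CPM, with 11, 11, 9 and 11 of the 12 markers detected. There Itgax was at 0 in WT 1, WT 2 and Z/Z 1, Xcr1 in Z/Z 1 and Z/Z 2 and Tyrobp in Z/Z 1. The part of RNA from blood cells in the levels of Ctss and H2-Oa was not tested.

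Shares of cells with a UMI followed the sums for H2-Aa and Ciita but not for every member. After thinning to 2000 UMIs, H2-Aa was seen in 76.0%, 74.0%, 62.6% and 69.0% of TECs (exact 95% intervals 72.1% to 79.5%, 64.5% to 82.1%, 60.4% to 64.8% and 66.5% to 71.3%), with 17, 2, 47 and 71 shallower cells left out. Without thinning the shares were 89.1%, 87.7%, 77.2% and 79.5%. For Ciita the thinned shares were 17.6%, 15.4%, 5.02% and 7.74%. Those of H2-Ab1 were 79.9%, 74.0%, 69.7% and 77.3%, so its groups overlapped. Ctsl was seen in 38.8%, 39.4%, 74.7% and 75.6% of thinned TECs, far more often in both Z/Z libraries, where its CPM in the sums had overlapped. The cTEC-like cells, 45, 5, 33 and 64 in number, held 77.5%, 42.7%, 8.93% and 24.5% of the Ctsl UMIs of the TECs. In mTEC2-like cells alone the thinned share of H2-Aa was 87.9%, 89.8%, 98.2% and 93.8%, higher in both Z/Z libraries. These intervals cover counting error only. Thymocytes, which should lack class II, had H2-Aa in 11.8%, 8.82%, 0 (of 5 cells) and 9.38% of thinned cells, so TEC shares lay far above this background.

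Fibroblasts had H2-Aa in 6.96%, 3.68%, 2.81% and 2.86% of thinned cells, below the thymocyte share in the 3 libraries with more than 5 thymocytes. The free RNA estimated from empty droplets would by itself give 19.3, 15.6, 12.6 and 22.4 CPM of H2-Aa in fibroblasts, 69.7% to 121% of the level read. This estimate exceeded the level read in both Z/Z libraries, so it is coarse. With the thymocyte shares beside it, the fibroblast share of H2-Aa is read as not above background in these 3 libraries. For H2-Ab1 the estimate was 53.3% to 107% of the level, and in Z/Z 2 its thinned share was 6.12% against 3.12% in thymocytes, which is 1 of 32 thymocytes. No member was called between genotypes by edgeR (0 of 9 tested, 0 at an unadjusted p under 0.05 and 0 by DESeq2, against 3.02% of 13865 genes, 1.77% called higher and 1.25% lower), with log2 fold changes of −0.55 to 0.22. Ctsl was at 937, 858, 859 and 789 CPM.

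Mural cells had H2-Aa at 35.5, 17.4, 13.5 and 14.1 CPM, Cd74 at 112, 86.8, 57.9 and 82.6 CPM and Ctsl at 158, 191, 176 and 165 CPM. Their free RNA estimate was 82.2%, 40.1%, 128% and 512% of the H2-Aa level, above the level read in both Z/Z libraries. Free RNA cannot exceed the level read, so the estimate was too high there. It put free RNA at 10.1% of mural UMIs in Z/Z 2, against 3.13%, 1.36% and 3.37% in WT 1, WT 2 and Z/Z 1. H2-DMa was at 7.11, 0, 15.1 and 18.2 CPM. For it the estimate was 16.6%, 14.7% and 53.6% of the level in WT 1, Z/Z 1 and Z/Z 2. By edgeR 0 of the 6 members tested were called (1, H2-Aa, at an unadjusted p under 0.05, and 0 by DESeq2), where 0.0346% of 8674 genes were. WT 2 held 11 mural cells, and such a sum sets the precision.

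In H2-Aa, endothelial cells lay between the other stroma and the epithelium. It was at 135, 78.8, 45.2 and 56.4 CPM and fell in Z/Z by 1.22 on the log2 scale (SE 0.26, edgeR adjusted p = 0.0367). Both WT libraries were above both Z/Z libraries. The free RNA estimate came to 13.8% to 34.9% of this level, and thymocytes in the same libraries read 77.7, 27.0, 0 and 33.1 CPM of H2-Aa. Ciita fell by 3.47 (SE 0.79, edgeR adjusted p = 0.0441), from 8, 4, 6 and 4 UMIs in 109, 25, 696 and 670 cells, which makes 8.53, 21.0, 1.16 and 0.835 CPM. The call rests on 22 UMIs in all. These were the 2 members called of 9 tested, where 1.01% of 11357 genes were called lower and 2.02% in either direction.

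The other class II members in endothelium did not pass. H2-Ab1 was at 135, 52.6, 60.3 and 61.2 CPM, H2-Eb1 at 86.4, 57.8, 52.0 and 49.9 CPM and Cd74 at 458, 205, 248 and 377 CPM. WT 1 was the highest library for each of them, and Cd74 overlapped between the groups. H2-Aa was no longer called with DESeq2 (adjusted p = 0.178) or without WT 1 (0.502), Z/Z 1 (0.361) or Z/Z 2 (0.127), and Ciita not without WT 2 (0.0887), Z/Z 1 (0.803) or Z/Z 2 (0.916). Thinned shares of H2-Aa were 14.3%, 8.0%, 5.64% and 7.87%. In WT 2 and Z/Z 2 these were below the thymocyte shares and in WT 1 above (14.3% against 11.8%, with overlapping exact 95% intervals of 8.22% to 22.5% and 5.79% to 20.6%), while Z/Z 1 had only 5 thymocytes to compare with. The thymocyte shares of WT 2 and Z/Z 2 rest on at most 38 and 34 cells. The summed endothelial level was above that of thymocytes in every library, and how much of the share is background was not tested.

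Class II levels varied over the endothelial clusters. A cluster led by Selp, Ackr1, Vwf and Sele, genes of venous endothelium, was at 94.1, 202, 160 and 137 CPM of H2-Aa and 571, 378, 952.5 and 1118 CPM of Cd74, from 24, 5, 87 and 104 cells. Its groups overlapped for H2-Aa. A cluster led by Gpihbp1, Cldn5, Cd36 and Car4, genes of capillaries, was at 170, 71.3, 22.2 and 35 CPM of H2-Aa, from 56, 14, 411 and 407 cells, and there both WT libraries lay above both Z/Z libraries. The arterial cluster, led by Stmn2, Gkn3 and Sema3g, was at 140, 15.1, 18.8 and 19.4 CPM, with WT 1 alone high. H2-Aa was highest in the venous cluster in WT 2 and both Z/Z libraries but not in WT 1. Ctsl was highest there in all 4, at 1896, 1134.5, 770.1 and 881.5 CPM. Differences between clusters were not tested.

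**Figure D5:**
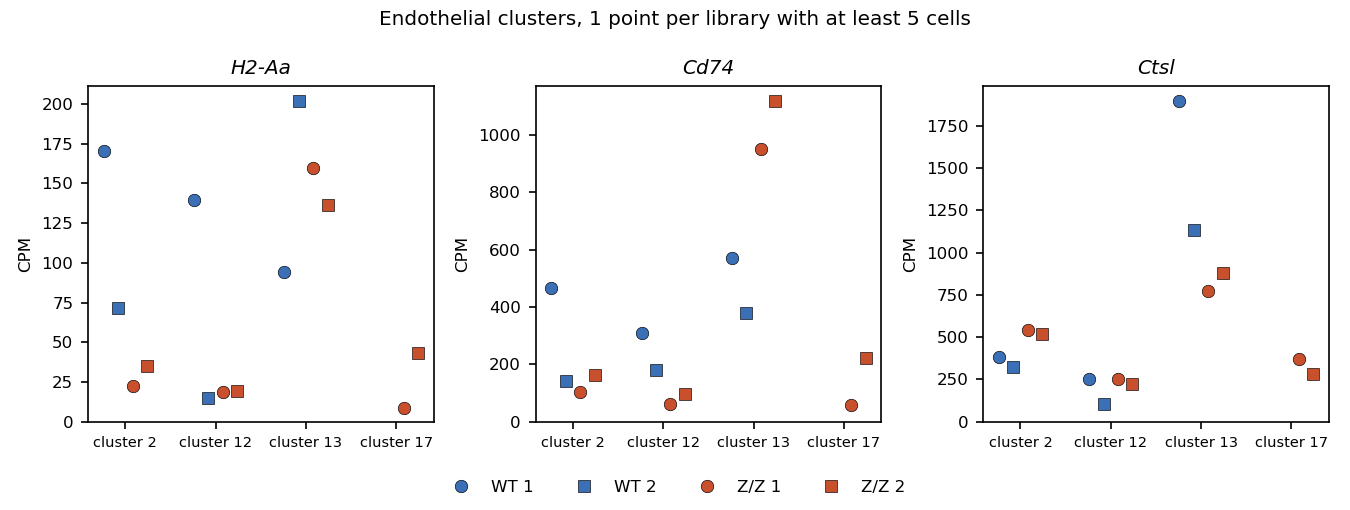
Levels of H2-Aa, Cd74 and Ctsl (CPM, linear axis from 0) in the capillary (cluster 2), arterial (12), venous (13) and Esm1-led (17) endothelial clusters, 1 point per library with at least 5 cells. In both Z/Z libraries the venous cluster lies above the other 3 for each gene.

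Whether a genotype difference depended on the lineage was tested as an interaction in 1 fit. For Ctss the log2 fold change was −0.09 in fibroblasts and −1.94 in TECs, so the change was smaller in fibroblasts, with a signed contrast (fibroblasts minus TECs) of 1.95 (SE 0.62, edgeR adjusted p = 0.0483) where 13.4% of 17662 genes were called and 6.39% in this direction. Ciita fell further in endothelial cells than in TECs, with a contrast of −2.16 (SE 0.63, edgeR adjusted p = 0.0495, 6.95% of genes called and 2.99% in this direction). For the other members neither contrast passed. Ctss in fibroblasts was at 2.77, 0.355, 1.73 and 1.62 CPM, so this contrast sets a level near the floor against the TEC sums. Without WT 1 the first contrast was 4.45 and without WT 2 or Z/Z 1 it was not called (0.107 and 0.412), and the second was not called without any 1 of the 4 libraries (0.0686 to 0.265).

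Other genes of the class II pathway were followed in the same TEC sums, 28 of the 29 listed being among the features. With edgeR 5 rose and 5 fell, against 22.5% of all genes tested that were called in either direction, and their median log2 fold change was 0.01. Without shared barcodes 0 were called (edgeR, 6 at an unadjusted p under 0.05), and without mTEC2-like cells 2, both higher in Z/Z. The 5 that fell included the other class II genes of the MHC region: H2-Ob, the DO β chain, at 36.6, 49.2, 5.30 and 8.97 CPM (−2.43, edgeR adjusted p = 0.0103), H2-Eb2 at 194, 209, 26.6 and 48.8 CPM (−2.28, 0.00971) and H2-DMb2 at 248, 240.004, 55.6 and 118 CPM (−1.35, 0.0449). H2-Ob and H2-Eb2 are the 2 pathway genes whose X and Y cores are printed above, while the window of H2-DMb2 lacked the pair. Of the members, H2-Eb1 and H2-DMb1 had the pair and did not pass. Whether the pair bears on these falls was not tested. Ifi30, a thiol reductase that opens disulfide bonds of antigens, fell by 1.03 (adjusted p = 0.0365) and Ifngr2, a chain of the interferon-γ receptor, by 0.78 (0.0194).

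The 5 that rose were of other kinds. Irf1, a factor induced by interferon-γ, was at 355, 388, 737 and 764 CPM (1.16, edgeR adjusted p = 0.00899). Cst3, which encodes the cathepsin inhibitor cystatin C, was at 598, 538, 1179 and 1186 CPM (1.21, 0.00899). The groups were well apart for both. Ctsb (0.97, 0.0225), the Y box factor subunit Nfyb (0.78, 0.0331) and the X box factor subunit Rfxap (0.71, 0.0480) rose by less. Rfx5, the subunit that binds the X box, was at 21.7, 23.2, 10.4 and 12.8 CPM and missed the threshold (−0.80, 0.0548). By edgeR none of the pathway genes was called in endothelial, mural, mTEC2-like or aaTEC1-like cells. In fibroblasts 3 were called higher and 1 lower.

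Over 45 sums of 1 library and 1 lineage or epithelial class with at least 20 cells, the members moved with each other to different degrees. H2-Aa, H2-Ab1, H2-Eb1 and Cd74 were correlated at r = 0.98 to 0.99 (Pearson, on log2 of CPM plus 1), and Ciita with these 4 at 0.88 to 0.91. H2-DMa and H2-DMb1 stood at 0.93 with H2-Aa and at 0.93 with each other. H2-Oa reached 0.79, Ctss 0.52 and Ctsl 0.44 with H2-Aa, and Ctss and Ctsl had r = −0.23. The sums over all TECs were not among them. The sums share libraries, and those of fibroblasts, endothelial cells, mural cells and thymocytes had low class II levels, so these are descriptions. Of 10373 other genes, those most like the mean of the 3 chain genes and Cd74 were Mreg (0.92), Krt7 (0.92), H2-DMb2 (0.92), 2610016A17Rik (0.91), Sfn (0.91), F2rl1 (0.90), Ripk4 (0.90), Abhd6 (0.90), Cdcp1 (0.90) and Rbm47 (0.90). Krt7 and Sfn are genes of epithelia, and H2-DMb2 is the gene related to H2-DMb1 named before.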

How the data were processed

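The authors ran Cell Ranger (7.0.1 in the file headers) against mm10 (GRCm38). The deposited values are UMI counts of a gene in a barcode, not normalized and with intronic reads. The deposited summaries give saturation as a percent (88.2%, 95.2%, 85.8% and 65.2%). The kit is given as v2 in the labels and a v3 chip is named elsewhere in the methods. Cells with more than 1000 genes and under 20% mitochondrial UMIs were kept, and the 3.9% with the highest doublet scores were removed, since the automatic threshold marked 97 cells. Clusters were made with scanpy 1.11.5 and leidenalg 0.10.2 (3500 variable genes, 35 components, 45 for TECs, resolution 1) without the members and pathway genes (38 in all), and named from marker lists, with thresholds set after seeing the data. UMIs were summed per library and lineage or class and tested with edgeR 4.0.16 (quasi-likelihood, TMM, filterByExpr, two-sided, Benjamini-Hochberg over all genes tested, 0.05). The study's rank-sum test on cells was not used. Libraries, not cells, were the replicates. Same-numbered libraries did not deviate together (r of −0.09 to −0.00), so the numbers were not treated as pairs.

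All 10 members were named in every lineage. Of the pathway list those past the threshold in TECs were named, Rfx5 being added after its value was seen, and the 10 genes most alike were taken by correlation among genes with a mean CPM of at least 10. The members and lists were chosen with earlier results of these data known. Positions come from GENCODE on GRCm38 and promoters from RefSeq. Alternatives were DESeq2 1.42.0, no filter, the replicate number as a block, each library left out, cells thinned to 2000 UMIs, free RNA subtracted, shared barcodes left out, under 10% mitochondrial UMIs, doublets kept, 2 classes left out in turn and classes weighted equally. The copy with fewer UMIs was left out in an alternative chosen after seeing the data, as were 6 of the settings for pathway genes. The tests were tried on simulated data. Intervals and floors cover counting error only.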

Additional observations from a re-analysis of the deposited data

Results flagged for a closer look

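The genotype difference was itself different between lineages for 2 members by a test of the interaction. For Ctss, fibroblasts minus TECs gave 1.95 on the log2 scale (edgeR adjusted p = 0.0483), with 13.4% of all genes called in this contrast. The fibroblast side is read from 23, 1, 21 and 12 UMIs of Ctss. On the TEC side the log2 fold change of Ctss was 0.17 once mTEC2-like cells were left out. For Ciita, endothelial cells minus TECs gave −2.16 (edgeR adjusted p = 0.0495), with 6.95% of genes called. The second is read from 22 endothelial UMIs of Ciita, and it was not called with the fewer-UMI copies of shared barcodes left out (0.0503).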

How the results depend on the processing

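The 4 calls in TECs became 0 without shared barcodes, 0 without mTEC2-like cells and 2 to 6 with 1 library left out. H2-Aa also lost its call with free RNA subtracted (edgeR adjusted p = 0.0603), doublets kept (0.0536), aaTEC2-like cells left out (0.0690) and the replicate block (0.0798). With the replicate number as a block 3 remained (H2-Oa, Ctss and Ciita), and pathway calls in TECs went from 10 to 6. In alternatives chosen after seeing the data they went to 0 without shared barcodes, 2 without mTEC2-like cells and 6 without aaTEC2-like cells. No pairing beyond a shared number is known. With 1 library left out the pathway calls were 4 to 8 (4 without Z/Z 1, 6 without WT 2). In fibroblasts 0 calls became 1 with free RNA subtracted. In endothelial cells 2 calls became 1 with DESeq2, with free RNA subtracted or under 10% mitochondrial UMIs, 0 with thinning, without shared barcodes or with doublets kept, and 0 to 3 with 1 library left out (0 without WT 1, Z/Z 1 or Z/Z 2). In aaTEC1-like cells 0 calls became 1 with DESeq2 or no filter and 0 to 6 with 1 library left out. The contrast of fibroblasts with TECs went from 1 call to 2 with no filter, 0 with thinning and 0 to 3 with 1 library left out. That of endothelial cells went to 0 with the fewer-UMI copies left out and 0 to 1 with 1 library left out. In TECs, signs turned for Ctsl without WT 2 (−0.12 to 0.97 over the libraries left out), and for H2-DMb1 without Z/Z 2 (−0.050 to 0.56) or with thinning (−0.11). Without mTEC2-like cells they turned for H2-Ab1 (0.23), H2-Eb1 (0.16), Cd74 (0.23), Ctss (0.17) and Ctsl (−0.85). With classes weighted equally they turned for H2-Ab1 (0.25), H2-Eb1 (0.18), Cd74 (0.32), Ciita (0.17) and Ctss (0.15). None of these turned values was called, and beyond the smaller samples that these alternatives make, the cause was not tested. Of 560 further values in other lineages and classes, 74 changed sign, 0 of them called. Cell number limits precision, and WT 2 held 106 TECs, 25 endothelial and 11 mural cells. No member was called within mTEC2-like cells in any alternative run, clusters at resolution 2 included.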

Other observations

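A cluster outside the named stroma, led by the immunoglobulin genes Igkc, Ighm and Jchain (28, 9, 28 and 19 cells), held 2 of the members at high levels. Cd74 was at 1777, 5538, 2465 and 2634 CPM and Ctss at 552, 644, 377 and 233 CPM. H2-Aa was at 67.8, 388, 163 and 154 CPM and Ciita at 40.7, 38.8, 14.8 and 17.6 CPM. These cells were in no comparison. Another unnamed cluster, found in Z/Z alone (110 and 38 cells) and led by Ctnna2, Ncam2, Luzp2 and Ncam1, was at 383 and 445 CPM of H2-Aa, 989 and 1184 CPM of Cd74 and 14.6 and 11 CPM of Ciita.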
